A study of Mus musculus with 3 samples.

Results

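The 8 genes described here encode transcription factors that set up and hold macrophage identity: Sfpi1 (current symbol Spi1, the factor PU.1), Cebpa, Cebpb, Cebpd, Maf, Bhlhe40, Bhlhe41 and Runx1. They were chosen by gene symbol, and all 8 had a row in each of the deposited tables, among 12880 genes with a value. The RNA of sorted lung macrophages was sequenced in bulk, from LysM-GFP mice of the C57BL/6 background aged 6 to 8 weeks, in which myeloid cells fluoresce green under the lysozyme M locus. Acute lung injury was set off by nebulizing lipopolysaccharide (LPS) from a saline solution at 1 mg/ml, and GFP+, Ly6g-negative, CD64+ cells were sorted at 0, 4 and 24 h. The same treatment text stands for the 0 h sample, so whether those mice inhaled LPS is not given. Nor is the number of mice or the hour of day behind a library. The deposited signal columns are headed GFP_CD11b with the time, and whether CD11b was part of the sort cannot be told from that heading. Each time point had 1 library, so every difference below is between libraries, none has a replicate check, and no test between time points was possible.

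PU.1 is the pioneer factor of the myeloid lineage, opening enhancers to which the C/EBP family, RUNX1 and the interferon regulatory factors bind beside it. Among the C/EBPs, C/EBP alpha builds the granulocyte and monocyte precursors, while C/EBP beta and C/EBP delta are known for carrying inflammatory transcription. BHLHE40 and BHLHE41 are repressors that bind E-boxes and are needed for the self-renewal of alveolar macrophages, the resident phagocytes of the airspace, whereas MAF is kept low in those cells and holds other macrophages out of cycle.

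The 3 libraries held 20379236 to 25135476 recovered reads. Pan-macrophage transcripts were abundant in each, with Csf1r at 29976, 40025 and 29673 normalized counts and Cd68 at 21286, 13168 and 17754 at 0, 4 and 24 h. Transcripts of other myeloid cells differed between the libraries alongside the factors. All 12 neutrophil markers with a value at both times were at least 2-fold higher at 4 h than at 0 h, with summed levels of 5200.6, 41744 and 8297 normalized counts at 0, 4 and 24 h, while Ly6g, Elane and Mpo had no row. For classical monocytes 10 of the 12 markers passed 2-fold upward at 4 h and 1 downward, and their sum without the chitinase-like gene Chi3l3, which is also an alveolar marker, was 122267, 569458 and 104726. Fn1, at 87223, 131482 and 25383, made up most of that sum at 0 h. At 24 h against 0 h 8 of the 12 were still at least 2-fold higher and 1, Fn1, was lower. Of 18 alveolar macrophage markers 0 were higher and 16 lower at 4 h, summing without Chi3l3 to 254107, 108887 and 193120. The 16 ranged from 2.1-fold lower for Fabp4 to 130-fold lower for Krt19, a spread that the sum hides. Car4 and Marco, which did not pass 2-fold, stood at 33512 and 15307 at 4 h and held much of the sum there. Over all genes 15.2% were at least 2-fold higher and 14.3% lower at 4 h, and 4.95% and 9.1% at 24 h against 0 h. Summed T and NK cell and B cell markers were at most 281.9 normalized counts in each library, and Cd3e, Trac, Pax5 and Ebf1 had no row. Epithelial markers summed to 15571, 16830 and 15781 at 0, 4 and 24 h, and interstitial macrophage markers to 48970, 69326 and 71937. Dendritic cell markers summed to 877, 3448 and 1449, and the 2 erythroid markers with a row to 51.4, 1130 and 1769. Xist had 13705, 4 and 1 reads and the Y-linked Ddx3y 4, 3994 and 2357, so the sex of the mice differed between the 0 h library and the other two. How far these differences in cells and mice enter the values of the factors was not tested, and in bulk RNA fewer cells of a type and less RNA per cell cannot be told apart.

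At 4 h against 0 h, Maf and Cebpd were higher, Cebpa, Bhlhe41 and Bhlhe40 were lower, and Sfpi1, Cebpb and Runx1 stayed within 2-fold. By ratios of normalized counts, 2 of the 8 factors were at least 2-fold higher, where 15.2% of all genes were, and 3 of 8 were at least 2-fold lower, where 14.3% of all genes were. At 24 h against 0 h, Cebpd and Maf remained above the 0 h library by at least 2-fold, 2 of 8 beside 4.95% of all genes, and Bhlhe40 and Runx1 were at least 2-fold lower, 2 of 8 beside 9.1% of all genes. With the libraries centred on ribosomal protein genes the counts at 24 h against 0 h became 0 higher (all genes: 1.69%) and 3 lower (all genes: 24.9%). Between 4 h and 24 h, Cebpa was at least 2-fold higher at the later time, 1 of 8 beside 14.4% of all genes, and Maf and Bhlhe40 were lower, 2 of 8 beside 17.9% of all genes. That last split became 2 higher (all genes: 23.2%) and 1 lower (all genes: 12.5%) with scaling to total reads. With centring on ribosomal protein genes it became 1 higher (all genes: 6.18%) and 4 lower (all genes: 33.6%). The median log2 ratio over the 8 factors was -0.35 for 4 h over 0 h. It was 0.20 for 24 h over 0 h and -0.15 for 24 h over 4 h. Medians over all genes lay within 0.01 of 0, where scaling by the median of ratios puts them. Centring on ribosomal protein genes moved log2 ratios by -0.56 for 24 h over 0 h, and scaling to total reads by 0.33 for 24 h over 4 h. Each shift is large enough to change the sign of the median over the 8 factors in that comparison.

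**Figure D1:**
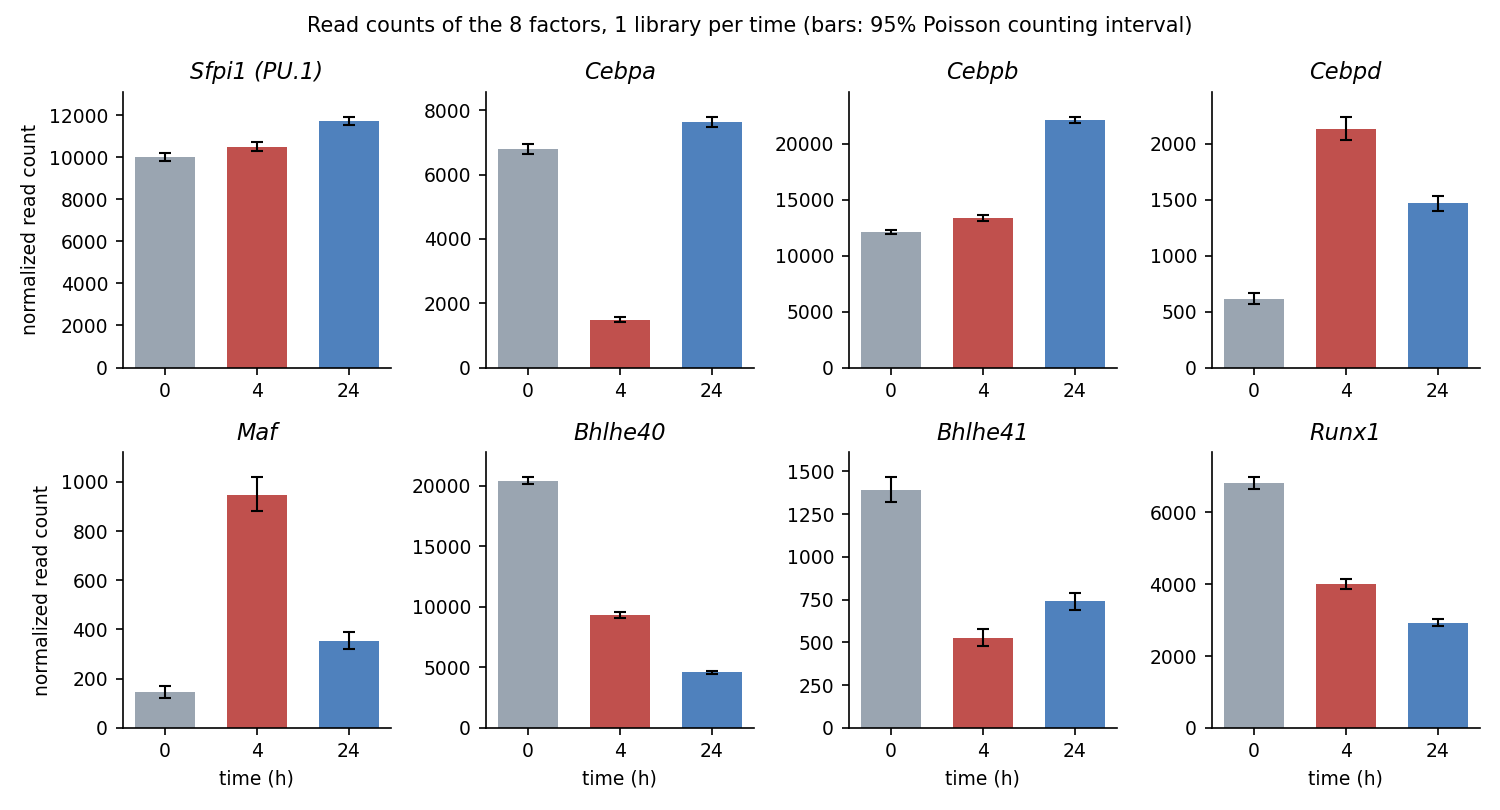
Normalized read counts (y axis, linear from 0) of the 8 factors at 0, 4 and 24 h (x axis), 1 bar per library with its 95% Poisson counting interval. Cebpa dips at 4 h to 1493, Maf and Cebpd are highest at 4 h, and Bhlhe40 and Runx1 are highest at 0 h.

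**Figure D2:**
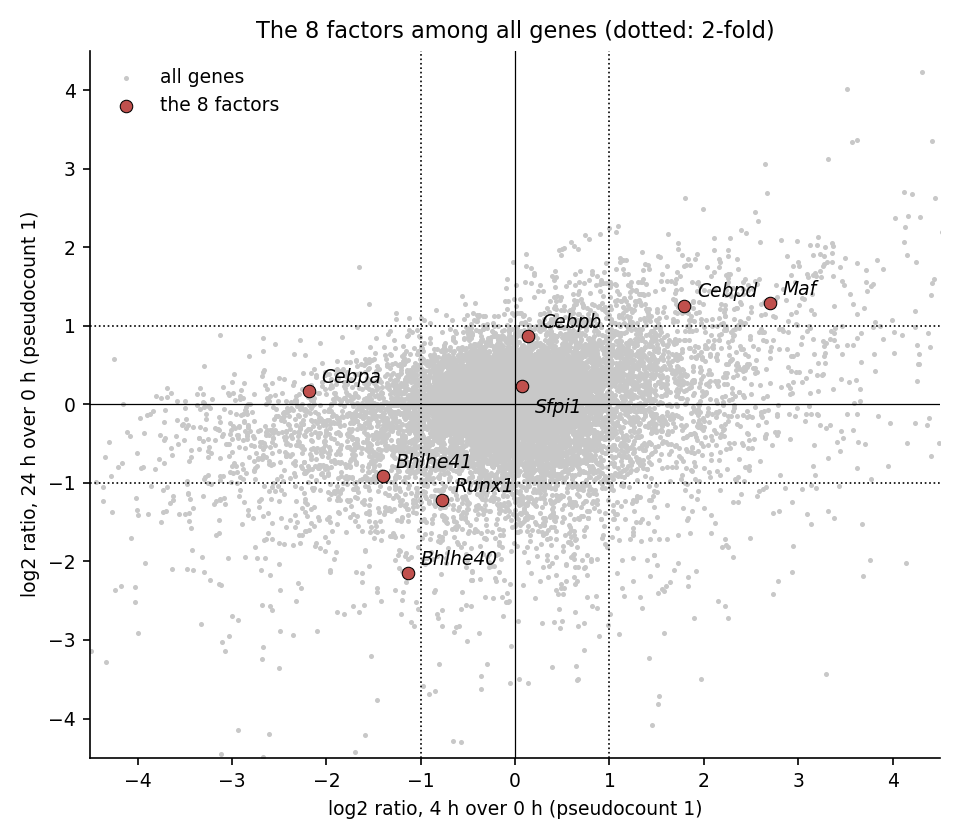
Log2 ratio at 4 h over 0 h (x axis) against log2 ratio at 24 h over 0 h (y axis) for 12377 genes (grey) and the 8 factors (red), with dotted lines at 2-fold. The axes end at 4.5 in both directions and leave out 104 genes, and because both axes share the 0 h library the slope of the cloud is not a result.

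Sfpi1 differed little between the libraries. It lies on the forward strand of chromosome 2 (91096678 to 91115759, mm10) and had 10699, 8280 and 14260 reads at 0, 4 and 24 h. On the scale common to the libraries these were 9991, 10510.3 and 11718 normalized counts. The ratio of 4 h to 0 h was 1.05 (95% counting interval 1.02 to 1.08) and that of 24 h to 0 h 1.17 (1.14 to 1.20), and both turned below 1 under another scaling of the libraries, with log2 values down to -0.09 (total reads) and -0.33 (ribosomal protein genes). The highest library was thus 1.17-fold above the lowest, the narrowest range among the 8 factors on this scale. With centring on ribosomal protein genes the range of Cebpb was narrower, with a log2 ratio of 0.31 for 24 h over 0 h, while that of Sfpi1 for 24 h over 4 h was -0.42. In pattern, 804 of 9254 genes whose mean reached 100 normalized counts lay within a distance of 0.25 log2 units of Sfpi1. The distance is Euclidean, over the 2 log2 ratios to the 0 h library. The nearest were Zfp346 and Rpain, at distances of 0.01 each.

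Factors that pair with PU.1 or share its binding domain took varied courses. Irf8, the interferon regulatory factor that partners PU.1 in monocytes, also differed little, at 3943, 4617 and 3738 normalized counts. Irf4, its close relative, stood at 434, 1173 and 448, 2.70-fold higher at 4 h (2.41 to 3.03). Spic, an ETS factor related to PU.1 and known from iron-recycling macrophages, was 2.98-fold higher at 4 h (2.40 to 3.72), with levels of 116, 345 and 173. Over the 15 measured relatives, partners and antagonists of PU.1, 4 were at least 2-fold higher at 4 h than at 0 h (all genes: 15.2%). In that comparison 1 was lower (all genes: 14.3%), with a median log2 ratio of 0.33, and at 24 h 1 was higher (4.95%) and 3 lower (9.1%).

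Genes known to be bound by PU.1 were counted next. Of 20 such genes 7 were at least 2-fold higher at 4 h (all genes: 15.2%) and 0 lower (14.3%), with a median log2 ratio of 0.38. For 24 h over 0 h 1 passed upward (all genes: 4.95%) and 0 downward (9.1%), the median being 0.01. Csf1r, the receptor for macrophage colony-stimulating factor and a textbook target of both PU.1 and RUNX1, was 1.34-fold higher at 4 h (1.32 to 1.36). Msr1, a scavenger receptor, was 16.2-fold higher at 4 h (15.3 to 17.1), with levels of 1355, 21937 and 2558. Csf3r, the granulocyte colony-stimulating factor receptor and one of the neutrophil markers above, was 4.66-fold higher (4.46 to 4.88).

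The 3 C/EBP genes took 3 different courses. Cebpa, on chromosome 7 (35119293 to 35121931, forward strand), had 7292, 1176 and 9294 reads, or 6809.6, 1493 and 7637 normalized counts. The 4 h library was the low one, 4.56-fold below 0 h (4.29 to 4.86) and 5.12-fold below 24 h (4.81 to 5.44), while 0 h and 24 h differed by 1.12-fold (1.09 to 1.16), a difference that changed sign with centring on ribosomal protein genes. Only 523 of 12512 genes had a lower ratio at 4 h against 0 h than Cebpa. The authors' deposited table gave Cebpa a log2 fold change of -1.65 at 4 h against 0 h, a value shrunken toward 0.

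Cebpb, on chromosome 2 (167688915 to 167690432, forward strand), did not share the dip. Its reads were 12989, 10525 and 26938, giving 12129.8, 13360 and 22136 normalized counts. The 24 h library was the high one, 1.82-fold above 0 h (1.79 to 1.86) and 1.66-fold above 4 h (1.62 to 1.69), short of 2-fold except with scaling to total reads, where the ratios were 2.05 and 2.08. Centring on ribosomal protein genes reduced them to 1.24 and 1.11. For 4 h over 0 h the ratio was 1.1 (1.07 to 1.13), which fell to the other side of 1 with scaling to total reads, at a log2 value of -0.02.

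Cebpd, on chromosome 16 (15887286 to 15889545, forward strand), was lowest at 0 h. It had 659, 1683 and 1787 reads, or 615, 2136 and 1468 normalized counts. The level at 4 h was 3.47-fold above 0 h (3.17 to 3.80) and that at 24 h 2.39-fold above it (2.18 to 2.61), the latter 1.62-fold with centring on ribosomal protein genes. The step from 4 h to 24 h was 1.45-fold downward (1.36 to 1.56).

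Because the reads of 2 genes in the same library share its depth, the balance among the C/EBPs can be read without any scaling between libraries. Cebpb had 1.78 reads for each read of Cebpa at 0 h (1.73 to 1.83), 8.95 at 4 h (8.43 to 9.51) and 2.90 at 24 h (2.83 to 2.97). Cebpd had 0.0904 reads per read of Cebpa at 0 h (0.0833 to 0.0979), 1.43 at 4 h (1.33 to 1.54) and 0.192 at 24 h (0.183 to 0.202). At 4 h the reads of Cebpd thus outnumbered those of Cebpa, and the ratio of the pair was 15.8-fold that of the 0 h library. Per kilobase of annotated exon the same reversal held, with Cebpa at 2583, 566 and 2897 normalized counts per kilobase and Cebpd at 272, 945 and 649.7.

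**Figure D3:**
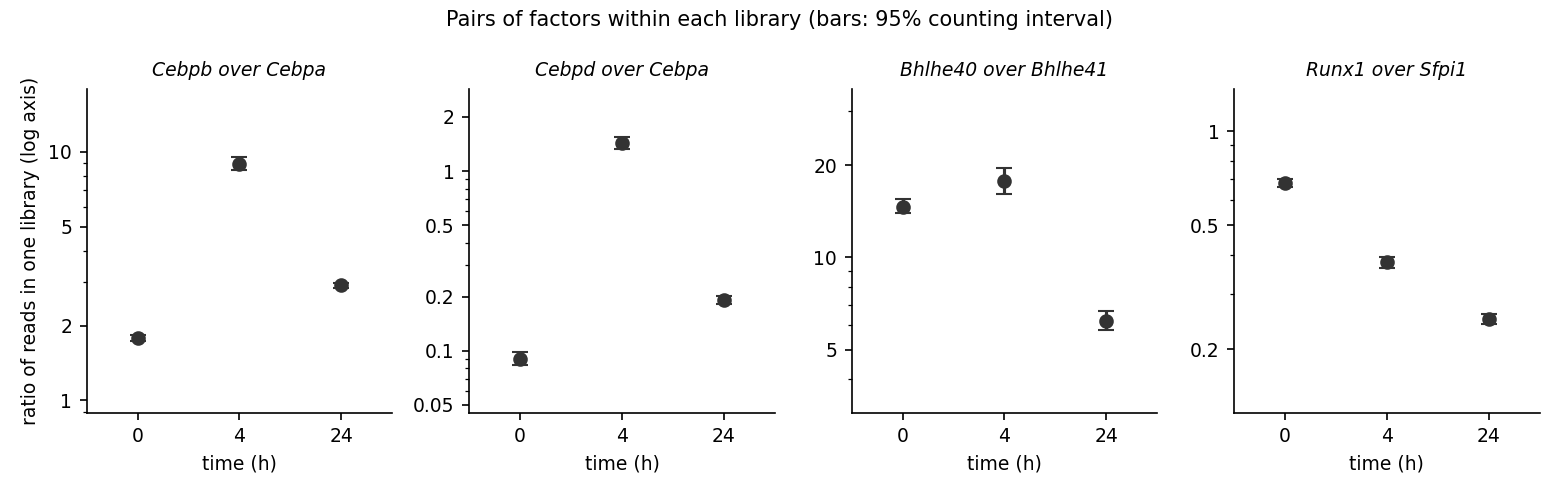
Ratio of the reads of 2 factors within the same library (y axis, log scale) at 0, 4 and 24 h (x axis), with 95% counting intervals. Cebpb over Cebpa reaches 8.95 and Cebpd over Cebpa 1.43 at 4 h, Bhlhe40 over Bhlhe41 drops to 6.22 at 24 h, and Runx1 over Sfpi1 is highest at 0 h (0.682) and lowest at 24 h (0.25).

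The promoters of Cebpa and Cebpb are shown because these 2 intronless genes of 1 family took different courses at 4 h, one low and the other near its 0 h level. The table of RefSeq promoters used here (GRCm38, the mm10 build) matched 4 of the 8 factors, Cebpa, Cebpb, Bhlhe41 and Runx1. The 250 bases before each transcript start are printed 5′ to 3′ on the gene's strand, in lower case, with capitals for any match on either strand to the C/EBP words TTGCGCAA or TTNNGNAA, the RUNX word TGTGGT, the E-box CACGTG, the MAF word TGCTGA or the PU.1 word GAGGAAGT. The Cebpa stretch is chr7:35119043-35119292 and that of Cebpb chr2:167688665-167688914.
Cebpa: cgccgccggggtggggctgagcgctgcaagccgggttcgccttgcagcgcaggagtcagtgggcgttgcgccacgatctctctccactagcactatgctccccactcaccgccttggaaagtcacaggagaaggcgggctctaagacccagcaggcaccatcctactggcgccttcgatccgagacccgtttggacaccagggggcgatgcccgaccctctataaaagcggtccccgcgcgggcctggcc
Cebpb: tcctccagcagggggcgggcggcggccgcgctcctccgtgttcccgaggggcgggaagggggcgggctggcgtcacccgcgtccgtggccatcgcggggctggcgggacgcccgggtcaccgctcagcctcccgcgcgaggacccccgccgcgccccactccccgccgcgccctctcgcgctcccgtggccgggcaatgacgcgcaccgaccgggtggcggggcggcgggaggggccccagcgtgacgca
Neither stretch holds any of these words, so both stand wholly in lower case. The looser C/EBP word TTNNGNAA, which every TTGCGCAA also fits, occurs in 36.8% of 32851 RefSeq promoter stretches of this length, TTGCGCAA in 0.164%, TGCTGA in 16.1% and GAGGAAGT in 2.44%. The Cebpb stretch is 81.6% G and C and the Cebpa stretch 66.4%. An absent word says only that these letters are not in this window.

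Other members and partners of the C/EBP family were measured as well. Cebpg, a C/EBP without an activation domain that pairs with the others, stood at 2984, 2002 and 4638 normalized counts, 2.32-fold higher at 24 h than at 4 h (2.19 to 2.45). Cebpe, the C/EBP of late granulocytes, had only 8, 19 and 22 reads, and its ratio of 3.23 at 4 h carried a counting interval of 1.35 to 8.52. Trib1, a pseudokinase that targets C/EBP alpha protein for degradation, was at 7823, 14403 and 4124, and is named here after its values were seen. Of the 9 measured relatives and partners, 2 were at least 2-fold higher at 4 h (all genes: 15.2%), Cebpe and Trib2, both with at most 42 reads in any library. There 0 were lower (all genes: 14.3%), and the median log2 ratio was 0.83. At 24 h against 0 h 3 were higher (all genes: 4.95%) and 0 lower (9.1%).

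Known C/EBP target genes were mostly higher at 4 h. By normalized counts Cebpa was then at its lowest, Cebpd at its highest and Cebpb near its 0 h level. Of 19 measured targets 14 were at least 2-fold higher at 4 h than at 0 h (all genes: 15.2%) and 2 lower (14.3%), with a median log2 ratio of 2.22. From 4 h to 24 h 0 were higher (all genes: 14.4%) and 17 lower (17.9%). The levels of Saa3, which encodes a serum amyloid of the acute phase, were 77.5, 4979.7 and 394, and the 4 h library was 64.2-fold above 0 h (51.7 to 80.8). Nos2, the inducible nitric oxide synthase, was 23.8-fold higher (17.2 to 33.7). The exceptions were Tnf, 2.89-fold lower (2.82 to 2.96), and Chi3l3, 2.87-fold lower (2.86 to 2.89). Many of these genes also answer to NF-kappaB, and Lcn2 and Csf3r are on the neutrophil list as well. Hp and Chi3l3 are also on the classical monocyte list, and Cd14 and Csf3r among the PU.1 targets.

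Maf had the widest range of the 8 factors by normalized counts, while with scaling to total reads that of Cebpa was wider (6.41-fold for 24 h over 4 h, against 5.87-fold for Maf at 4 h over 0 h). Its row covers 3642 bases of chromosome 8 (115703253 to 115706894, reverse strand), while the GENCODE gene of the same build spans 24853 bases, and whether reads of the longer transcripts outside that block were counted is not given in the sources used here. The reads were 155, 747 and 431, or 145, 948 and 354 normalized counts. The 4 h library was highest, 6.55-fold above 0 h (5.50 to 7.84), and the 24 h library stood between, 2.45-fold above 0 h (2.03 to 2.96) and 2.68-fold below 4 h (2.37 to 3.02). With centring on ribosomal protein genes the 24 h library was 1.66-fold above 0 h. Of 12512 genes 292 had a higher ratio than Maf at 4 h against 0 h.

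Bach1, a heme-sensing repressor that pairs with the small MAF proteins, was 2.81-fold higher at 4 h (2.72 to 2.92). Of 9 MAF and CNC relatives 2 were at least 2-fold higher at 4 h (all genes: 15.2%), Bach1 among them, and 0 lower (14.3%). The median log2 ratio was 0.40, and at 24 h 1 was higher (all genes: 4.95%) and 1 lower (9.1%).

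Genes linked to MAF in tissue macrophages were split. Of 17 measured, 5 were at least 2-fold higher at 4 h (all genes: 15.2%) and 6 lower (14.3%), with a median log2 ratio of -0.02. The list does not separate genes that MAF raises from genes that it lowers. The counts and the median therefore do not say whether these genes followed Maf. Il12b, the shared subunit of interleukins 12 and 23, was 7.55-fold higher (5.78 to 9.99), with levels of 60.7, 458 and 72.3. C1qa, a complement component, was 2.77-fold lower (2.54 to 3.03), and Mertk, a receptor for apoptotic cells, 6.31-fold lower (5.96 to 6.68). Il10, the anti-inflammatory cytokine that MAF activates and BHLHE40 represses in lymphocytes and macrophages, had 215, 207 and 23 reads. The 24 h library was the low one for Il10, 10.6-fold below 0 h (6.90 to 17.1) and 13.9-fold below 4 h (9.02 to 22.4), while the levels of Maf were lowest at 0 h and those of Bhlhe40 at 24 h.

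Bhlhe40 and Bhlhe41 were both highest at 0 h but parted by 24 h. Bhlhe40, on chromosome 6 (108660629 to 108666925, forward strand), had 21866, 7344 and 5597 reads, or 20419.5, 9322 and 4599 normalized counts. It was 2.19-fold lower at 4 h (2.13 to 2.25) and 4.44-fold lower at 24 h (4.31 to 4.57) than at 0 h. Only 175 of 12481 genes had a lower ratio at 24 h against 0 h. The step from 4 h to 24 h was 2.03-fold downward (1.96 to 2.10), just past 2-fold, and TMM scaling put it at a log2 value of -0.97, just short of it. The authors' deposited table gave Bhlhe40 a log2 fold change of -1.31 at 24 h against 0 h.

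Bhlhe41, also on chromosome 6 (145858243 to 145865420, reverse strand), had 1491, 414 and 900 reads, or 1392, 526 and 739.5 normalized counts. The 4 h library was the low one, 2.65-fold below 0 h (2.37 to 2.96), and at 24 h the level was 1.88-fold below 0 h (1.73 to 2.05), or 2.78-fold with centring on ribosomal protein genes. Its ratio of 24 h to 4 h was 1.41 (1.25 to 1.58), and centring on ribosomal protein genes took it to the other side of 1, at a log2 value of -0.09. Within a library, Bhlhe40 had 14.7 reads for each read of Bhlhe41 at 0 h (13.9 to 15.5), 17.7 at 4 h (16.1 to 19.6) and 6.22 at 24 h (5.80 to 6.68). The drop in this ratio between 4 h and 24 h does not depend on scaling between libraries.

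The promoter of Bhlhe41 is shown because it holds the word that the factor and its paralog bind. It lies at chr6:145865421-145865670 and reads on the reverse strand, with the E-box in capitals.
Bhlhe41: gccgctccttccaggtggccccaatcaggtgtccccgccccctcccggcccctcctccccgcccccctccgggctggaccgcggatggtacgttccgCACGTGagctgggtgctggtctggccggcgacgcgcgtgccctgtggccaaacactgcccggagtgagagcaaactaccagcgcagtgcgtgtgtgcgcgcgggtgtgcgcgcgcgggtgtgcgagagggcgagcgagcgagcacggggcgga
The single CACGTG begins at position -153 relative to the transcript start. This word occurs in 6.02% of RefSeq promoter stretches of this length. Of the 9254 genes compared in pattern, 43 lay within 0.25 of Bhlhe41, and the nearest were Galnt6, an O-glycosylation enzyme, and the clock gene Per2, at distances of 0.06 and 0.07. Per2, a repressor of the circadian clock, stood at 404, 151 and 204.6 normalized counts, 2.68-fold lower at 4 h (2.18 to 3.31).

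The clock and bHLH genes around the pair took varied courses. Arntl, the clock activator BMAL1, stood at 582, 461 and 376 normalized counts, and Per1 at 4489.9, 4122 and 3236. Id2, an inhibitor of bHLH factors, stood at 4589, 3839 and 3588. Of 25 bHLH, ID and clock genes 4 were at least 2-fold higher (all genes: 15.2%) and 4 lower (14.3%) at 4 h, near the shares of all genes. The median log2 ratio was -0.03, and at 24 h 3 were higher (all genes: 4.95%) and 0 lower (9.1%). Tcf4, an E protein, was 4.84-fold higher at 4 h (4.35 to 5.39) and Mxd1, which competes with MYC for its partner MAX, 3.95-fold higher (3.77 to 4.14). Myc itself, a driver of macrophage self-renewal, was 3.26-fold lower (2.82 to 3.79), at 932, 286 and 577.

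Runx1 was highest at 0 h and lowest at 24 h. Its row runs from 92601466 to 92697329 on the reverse strand of chromosome 16 and so starts at the proximal of its 2 promoters, while the GENCODE gene reaches to 92826149, and the count cannot separate transcripts from the distal start. The reads were 7302, 3150 and 3567, or 6819, 3998 and 2931 normalized counts. The level was 1.71-fold lower at 4 h (1.64 to 1.78) and 2.33-fold lower at 24 h (2.23 to 2.42) than at 0 h, and stayed at least 2-fold lower at 24 h under every scaling tried, from 2.07 to 3.43. Set against Sfpi1 in the same library, Runx1 had 0.682 reads per read at 0 h (0.662 to 0.703), 0.380 at 4 h (0.365 to 0.396) and 0.25 at 24 h (0.241 to 0.260). Its nearest genes in pattern were Egr2, a growth response factor of macrophages, and Gab2, a signalling adaptor, each at a distance of 0.06, and 36 of 9254 genes lay within 0.25.

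Both promoters of Runx1 are shown because the deposited row starts at the proximal one. The distal stretch is chr16:92826075-92826324 and the proximal one chr16:92697330-92697579, both read on the reverse strand.
Runx1 distal: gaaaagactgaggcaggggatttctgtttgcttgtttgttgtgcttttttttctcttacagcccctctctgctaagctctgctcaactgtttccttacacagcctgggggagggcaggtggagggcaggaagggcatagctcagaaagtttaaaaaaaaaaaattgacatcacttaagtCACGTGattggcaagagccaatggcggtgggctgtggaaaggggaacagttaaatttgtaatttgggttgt
Runx1 proximal: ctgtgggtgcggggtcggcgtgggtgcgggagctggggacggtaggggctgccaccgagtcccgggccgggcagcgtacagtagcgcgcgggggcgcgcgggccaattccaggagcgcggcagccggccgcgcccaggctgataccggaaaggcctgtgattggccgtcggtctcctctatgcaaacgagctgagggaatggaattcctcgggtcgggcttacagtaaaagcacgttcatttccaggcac
The distal stretch holds 1 E-box, at position -71 relative to its transcript start, and the proximal stretch holds none of these words. The GC content is 45.6% in the distal and 67.6% in the proximal stretch. Neither holds the RUNX word TGTGGT, which occurs in 14.0% of RefSeq promoter stretches of this length.

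RUNX1 binds DNA with CBFB, and Cbfb did not follow it. Cbfb stood at 2863, 3326 and 3421 normalized counts, so that Runx1 went from 2.38 reads per read of Cbfb at 0 h (2.28 to 2.49) to 1.20 at 4 h (1.14 to 1.27) and 0.857 at 24 h (0.819 to 0.896). Among the paralogs, Runx3 was 3.05-fold higher at 4 h (2.79 to 3.34) and Runx2 stood at 2186, 1183 and 1405. Tle3, a Groucho corepressor recruited by RUNX proteins, was 3.65-fold higher at 4 h (3.48 to 3.83) and Tle2, another, 3.3-fold lower (2.43 to 4.57). Of 9 RUNX relatives and cofactors 2 were at least 2-fold higher (all genes: 15.2%) and 1 lower (14.3%) at 4 h, near the shares of all genes. The median log2 ratio was 0.15, and 0 passed in either direction at 24 h against 0 h (all genes: 4.95% higher and 9.1% lower).

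**Figure D4:**
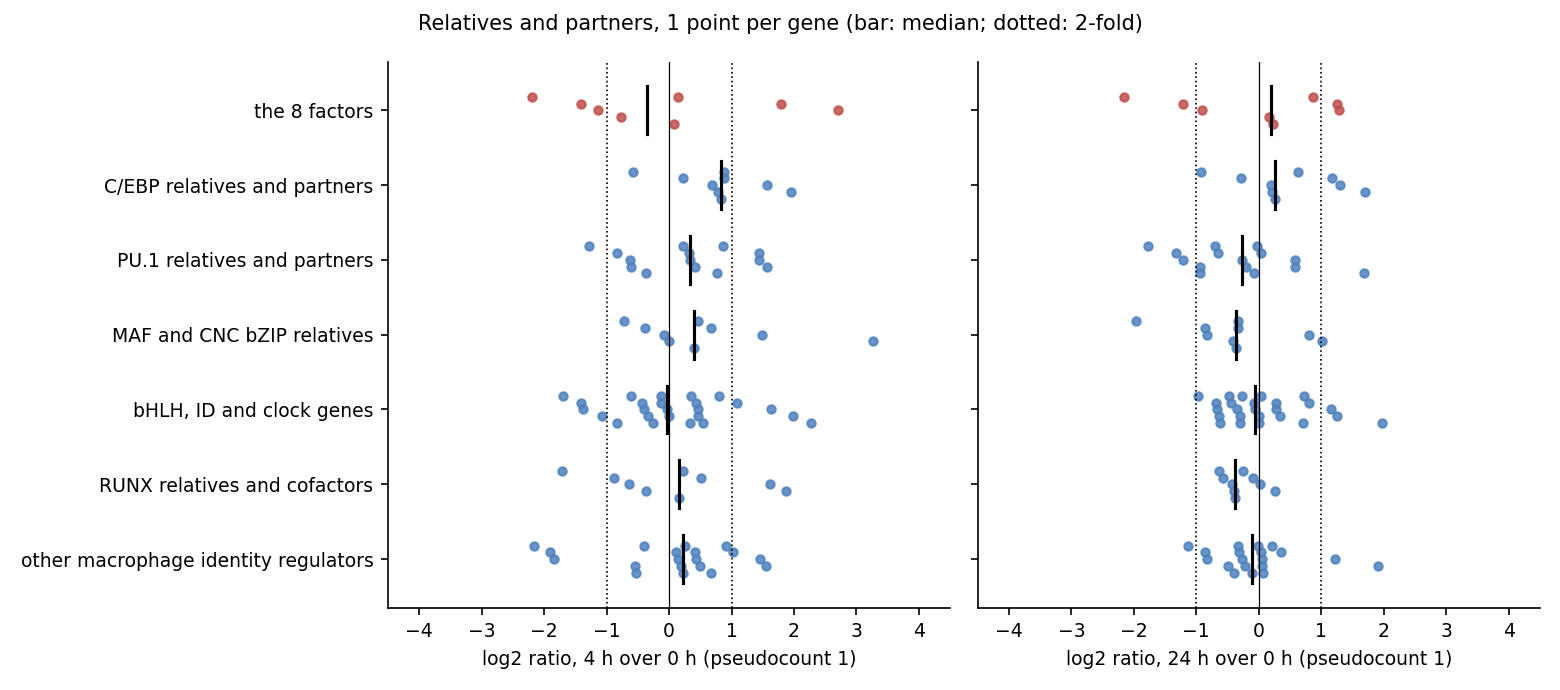
Log2 ratio of each gene at 4 h over 0 h (left) and at 24 h over 0 h (right), x axes with a pseudocount of 1, for the 8 factors (red) and the lists of relatives, partners and other identity regulators (blue), with list medians as black bars. The 8 factors spread over both sides of 0 at 4 h, from -2.19 for Cebpa to 2.70 for Maf.

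Other regulators of macrophage identity gave the setting for the 8 factors. Of 19 measured, 3 were at least 2-fold higher (all genes: 15.2%) and 3 lower (14.3%) at 4 h, near the shares of all genes. The median log2 ratio was 0.23, and at 24 h against 0 h 2 were higher (all genes: 4.95%) and 1 lower (9.1%). Pparg, a nuclear receptor required to form alveolar macrophages and one of their markers above, was 4.5-fold lower at 4 h (4.21 to 4.81), next to the 4.56-fold of Cebpa, and stood at 5967, 1326 and 4805. Its partner Rxra was 3.75-fold lower at 4 h (3.56 to 3.95). Zeb2, which maintains tissue macrophage identity, was 2.95-fold higher (2.87 to 3.03) and Smad3, a mediator of TGF-beta signals, 2.75-fold higher (2.49 to 3.05).

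Measured per kilobase of annotated exon, the order of the 8 factors differed between libraries. Cebpb and Sfpi1 led at every time, at 8065 and 6742 normalized counts per kilobase at 0 h, 8883 and 7092 at 4 h, and 14718 and 7907 at 24 h. At 0 h they were followed by Bhlhe40 (4339.96), Cebpa (2583), Runx1 (730.2), Cebpd (272), Bhlhe41 (212) and Maf (39.7). At 4 h the order was Bhlhe40 (1981), Cebpd (945), Cebpa (566), Runx1 (428), Maf (260.4) and Bhlhe41 (79.8). At 24 h it was Cebpa (2897), Bhlhe40 (978), Cebpd (649.7), Runx1 (314), Bhlhe41 (112) and Maf (97.2). Bhlhe41 and Maf changed places at 4 h and again at 24 h. Exon lengths came from GENCODE within the span of each row, since the annotation the authors counted on is not given in the sources used here.

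Several of these genes lie over transcripts of the opposite strand, and whether the counting used strand is not given in the sources used here. Exons of Tmem189 share 312 bases with Cebpb, and exons of Spidr share 322 bases with Cebpd. Antisense or provisional transcripts share 401 bases with Maf, 1280 with Bhlhe41, 118 with Bhlhe40, 106 with Runx1 and 51 with Cebpa. Without strand, reads from these stretches cannot be assigned to either gene, and their part in the values was not tested.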

How the data were processed

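RNA was sequenced from sorted lung macrophages, 1 library at each of 0, 4 and 24 h. DESeq2 and the mm10 build are named in the submitters' processing notes, with aligner, counter and annotation not given in the sources used here. The deposited signal values of 3 pairwise tables are gene counts divided by a size factor of the pair, and 100% of values were whole multiples of the column's step within 0.001 reads, so reads were recovered. The tables list genes with a mean above 10, and 20 repeated rows were dropped from 1 table. The deposited log2 fold changes are shrunken toward 0, and the deposited p-values were not used, as no time point was replicated. In the table of 0 h and 24 h, 1 signal column is headed 4 h and was given to no sample. The first library implied by that table's mean equals the 0 h reads in 12310 of 12310 genes and the 4 h reads in 66 of 12453. Deposited start positions count from 0 (start plus 1 met a GENCODE start in 46.4% of 11623 genes, the start as given in 5.26%), and 1 was added.

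Normalized counts are recovered reads over a size factor (1.07, 0.788 and 1.22), the median of ratios across 12451 genes. Ratios carry exact binomial (Clopper-Pearson) 95% intervals. These hold counting error alone, and PCR copies cannot be recognised without molecular identifiers. Called means a ratio of at least 2-fold in these libraries. The ratio, scaling and interval steps were tested on simulated data. There few genes changed and counts varied by Poisson error alone, so scaling was not tested at the share of changed genes seen here. Members and gene lists were chosen with earlier results of these data known. The text names all 8 factors, the fixed partners, and from each list the 2 genes furthest up and down at 4 h past 2-fold with a mean of at least 100, except for genes not reported here. Pattern distance is Euclidean over both log2 ratios against 0 h (pseudocount 1, 3 libraries). Software was Python 3.11.15, scipy 1.17.1, R 4.3.3 and edgeR 4.0.16 (TMM factors only, no model fit).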

Additional observations from a re-analysis of the deposited data

How the results depend on the processing

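With 1 library per time point no replicate could be left out, and no paired analysis was possible because no replicate numbers exist. Of 54 recomputed counts of factors past 2-fold, 40 stayed within 1.5 times the reported count, so that 2 against 3 counted as staying, and 14 did not. Recounts among genes with a mean of at least 100 could not differ, since all 8 factors pass that filter. A pseudocount of 1 could hardly change a count, so the 40 overstate the stability. A threshold of 3-fold gave 1 lower factor for 4 h over 0 h (all genes: 7.80%). For 24 h over 0 h it gave 0 higher (all genes: 1.59%) and 1 lower (3.59%), and for 24 h over 4 h 0 lower (9.21%). A threshold of 1.5-fold gave 2 higher at 24 h against 4 h (all genes: 26.2%). Calling on the authors' deposited log2 values, past 1 or -1, gave 0 higher (all genes: 0.539%) and 1 lower (2.14%) at 24 h against 0 h. It gave 1 lower at 24 h against 4 h (all genes: 10.2%). Centring on ribosomal protein genes gave 0 higher at 24 h against 0 h (all genes: 1.69%) and 4 lower at 24 h against 4 h (all genes: 33.6%). In the latter comparison total-read scaling gave 2 higher (all genes: 23.2%) and 1 lower (12.5%). There TMM scaling and the table's own pair signals gave 1 lower each (all genes: 17.0% and 17.1%). Ribosomal centring moved the median log2 ratio of all genes by -0.56 for 24 h over 0 h and -0.58 for 24 h over 4 h, and total-read scaling by -0.16 for 4 h over 0 h, 0.17 for 24 h over 0 h and 0.33 for 24 h over 4 h. Apart from these constructions the cause was not tested. Of 120 recomputed ratios of single factors, 80 stayed inside the counting interval, 40 moved out of it, and 0 of those at least 2-fold changed direction. That 0 was fixed in advance, as each scaling shifts all ratios of a comparison alike, here by at most 0.58 in log2. A pseudocount of 1, among the settings, hardly moves ratios at these read numbers. Ratios under 2-fold that crossed 1 under another scaling were those of Sfpi1 in each comparison, Cebpa for 24 h over 0 h, Cebpb for 4 h over 0 h and Bhlhe41 for 24 h over 4 h. Among the 8 factors depth limits Maf most, with 155 reads at 0 h.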

Other observations

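A group of regulators from the same lists was higher at 24 h than at both earlier times, a course that Cebpb shares. These genes were chosen after their values were seen. Hes1, a Notch-responsive bHLH repressor, stood at 334, 462 and 1310 normalized counts at 0, 4 and 24 h, 3.92-fold higher at 24 h than at 0 h (3.49 to 4.41). Klf2, a Kruppel-like factor that restrains myeloid activation, stood at 3157, 3422 and 11891. Tef, a bZIP factor with circadian output, was 3.26-fold higher at 24 h than at 0 h (2.90 to 3.68), Id1, an inhibitor of bHLH factors, 2.39-fold (2.09 to 2.73), Nr1d2, a nuclear receptor of the clock, 2.24-fold (2.0 to 2.51), and Nfe2, a CNC factor of blood cells, 2.01-fold (1.84 to 2.20). In the other direction Maff, a small MAF protein induced by inflammation, stood at 5051, 3049 and 1298. It was 3.89-fold lower at 24 h than at 0 h (3.68 to 4.12), the same order of libraries as Bhlhe40 and Runx1. These sizes depend on the scaling of the libraries. Centring on ribosomal protein genes moved log2 ratios by -0.56 for 24 h over 0 h and -0.58 for 24 h over 4 h. With it the ratios of Cebpb were 1.24 and 1.11, and Id1, Nr1d2 and Nfe2 would stand below 2-fold at 24 h against 0 h.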
